A study of Mus musculus with 8 samples.

Results

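The muscle intermediate filament genes described here are Des, Synm, Vim, Nes and Lmna, which encode desmin, synemin, vimentin, nestin and the A-type lamins. All probe sets whose annotation gives exactly one of these symbols were taken. They number 15 of the 45037 probe sets of the array table, for 5 of its 18193 genes, with 2 for Des, 2 for Synm, 3 for Vim, 3 for Nes and 5 for Lmna. A probe set is a group of short probes read together as 1 value, and values are on the log2 scale, where a difference of 1 is a doubling.

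RNA of the whole aorta of 4 month-old mice was measured on Affymetrix arrays, 4 from mutants and 4 from controls. The mutants carried the alleles SRF-flex2neo and SM22CreERT2ki/+, that is, a Srf gene flanked by recombinase sites and a tamoxifen-dependent Cre knocked into 1 copy of Tagln, which encodes SM22, an actin-binding protein of smooth muscle. The controls were littermates labelled SRF-flex2neo, and their label names no Cre. Both groups received 1 mg of tamoxifen into the peritoneum for 3 days and were killed 8 days later. Cre is made under control of the Tagln locus, so cells of the aorta that do not use it keep Srf. The Cre and the altered Tagln allele go with the mutant group and cannot be told apart from the loss of Srf. The array titles form 2 sets, with mutants 1 and 2 and controls 1 and 2 in set 1, and mutants 3 and 4 and controls 3 and 4 in set 2. The sources used here do not state what the sets are, nor that different arrays hold RNA of different mice, and the p-values below therefore reflect array-to-array spread that may be technical.

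Intermediate filaments are rope-like polymers of coiled-coil proteins that give cells resistance to stretch. Desmin is the main filament of muscle cells and ties their contractile units to dense bodies, to the membrane and to the nucleus. In arterial smooth muscle it occurs together with vimentin, which is the general filament of mesenchymal cells and is also made by endothelial cells and fibroblasts. Synemin and nestin do not build filaments alone but join those of desmin or vimentin, and the A-type lamins line the inside of the nuclear envelope. Serum response factor (SRF) is a transcription factor that binds a DNA element called the CArG box near many muscle and cytoskeleton genes.

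The letters before the start sites of Des and Vim are shown because these were the member with the largest difference between the groups and the brightest member. They are the 250 bases upstream of the annotated start, from RefSeq on GRCm38.p6, plus strand in both cases, and capitals mark the motifs CANNTG (an E-box), CCAAT and, next to the start, TATAAA on either strand.
Des, chr1:75360042-75360291: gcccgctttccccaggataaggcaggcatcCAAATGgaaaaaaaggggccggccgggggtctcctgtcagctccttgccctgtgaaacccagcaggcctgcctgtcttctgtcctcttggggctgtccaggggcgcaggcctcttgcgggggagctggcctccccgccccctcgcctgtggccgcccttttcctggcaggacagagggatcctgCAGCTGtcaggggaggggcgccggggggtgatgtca
Vim, chr2:13574061-13574310: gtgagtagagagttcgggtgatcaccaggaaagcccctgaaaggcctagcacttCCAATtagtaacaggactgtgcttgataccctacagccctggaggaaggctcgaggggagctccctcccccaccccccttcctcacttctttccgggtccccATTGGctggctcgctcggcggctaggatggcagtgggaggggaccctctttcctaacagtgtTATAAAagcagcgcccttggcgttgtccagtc
The Des window held the E-box, a site of helix-loop-helix factors, at 220 and 36 bases before the start, where 66.2% of 32851 windows of the same length over all genes hold it at least once. The Vim window held TATAAA at 32 bases before the start, against 12.4% of all windows, and the CCAAT box at 196 and 94 bases before it, against 33.8%. GGGCGG, a site of Sp factors that is not capitalised here, was at 87 and 69 bases before the start of Des, in the Nes window and in 1 Lmna window, against 32.7% of all windows. A CArG box on either strand was in none of the 6 windows of the 5 genes (Lmna has 2), and in 1.47% of all windows. With at most 1 letter changed, it was matched at 239 bases before the start of Synm and at 131 bases before 1 of the starts of Lmna, against 18.6% of all windows. At the Lmna position, CCAAT overlaps the match. A match is a run of letters, and its absence says only that these letters are not in this window.

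The genes lie, in GRCm38.p6, on chromosome 1 from 75360292 to 75368579 (Des), on chromosome 7 from 67730161 to 67759742 (Synm), on chromosome 2 from 13574311 to 13582826 (Vim), on chromosome 3 from 87971093 to 87980451 (Nes) and on chromosome 3 from 88481148 to 88509932 (Lmna). Which exons the probe sets cover was not looked up.

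The arrays had medians of 3.72 to 3.98, and their number limits the precision. Mutant 2 stood apart from the rest: its correlations with the other arrays over all probe sets were 0.9612 to 0.9736, against 0.9834 to 0.9971 for the other pairs. Many results below are therefore given with and without it, and those given once include it. The tissue label was borne out by 16 smooth muscle contractile genes, whose mean was 13.61 to 13.84 in mutants and 13.95 to 14.05 in controls. The targeted gene Srf, in its brighter probe set, was at 10.21, 9.54, 10.32 and 10.34 in mutants and at 10.52, 10.20, 10.15 and 10.34 in controls, a difference of -0.20 (SE 0.19, limma adjusted p = 0.686). The place of this probe set relative to the deleted part was not looked up here, and its value is no check of the deletion. The comparison was a limma fit over the 27023 probe sets left after the 40% with the lowest mean were dropped, with the set as a block and Benjamini-Hochberg adjustment over all of them. Of the 15 member probe sets 14 passed that filter, and a dim second probe set of Des, at 2.20 to 2.25 in mutants and 2.19 to 2.26 in controls, did not. Neither the members nor any other probe set passed an adjusted p of 0.05: 0 of 14 members, where the share of all probe sets called was 0%. At an unadjusted p under 0.05 there was 1 of 14 members, against 9.55% of all probe sets. The fitted difference was below 0 in 13 of the 14 members, against 59.9% of all probe sets. Here and below, the 14 are probe sets of 5 genes. Those of the same gene are not independent, so such counts are not 14 separate results. In 0 of 14 members were the groups free of overlap, against 3% of all probe sets.

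Desmin messenger RNA was lower on 3 of the 4 mutant arrays than on every control array, and did not pass the adjusted test. Des was at 9.43, 10.58, 9.13 and 9.41 in mutants and at 10.53, 10.15, 10.62 and 10.36 in controls. Mutants 1, 3 and 4 lay below the lowest control, while mutant 2 lay above 3 of the 4 controls, so the groups overlapped. The means were 9.64 ± 0.64 in mutants and 10.42 ± 0.21 in controls (SD, n = 4 each). The difference of -0.78 (SE 0.30, 95% confidence interval -1.48 to -0.07) is a mutant level of 0.583 times that of controls, with an unadjusted limma p of 0.0352 and an adjusted p of 0.507. In whole tissue, fewer cells of a type and less RNA per cell cannot be told apart. Within set 1 it was -0.34 and within set 2 -1.22, and the interaction of genotype with set was -0.89 (SE 0.53, limma adjusted p = 0.824), so a difference between the sets was not shown.

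**Figure D1:**
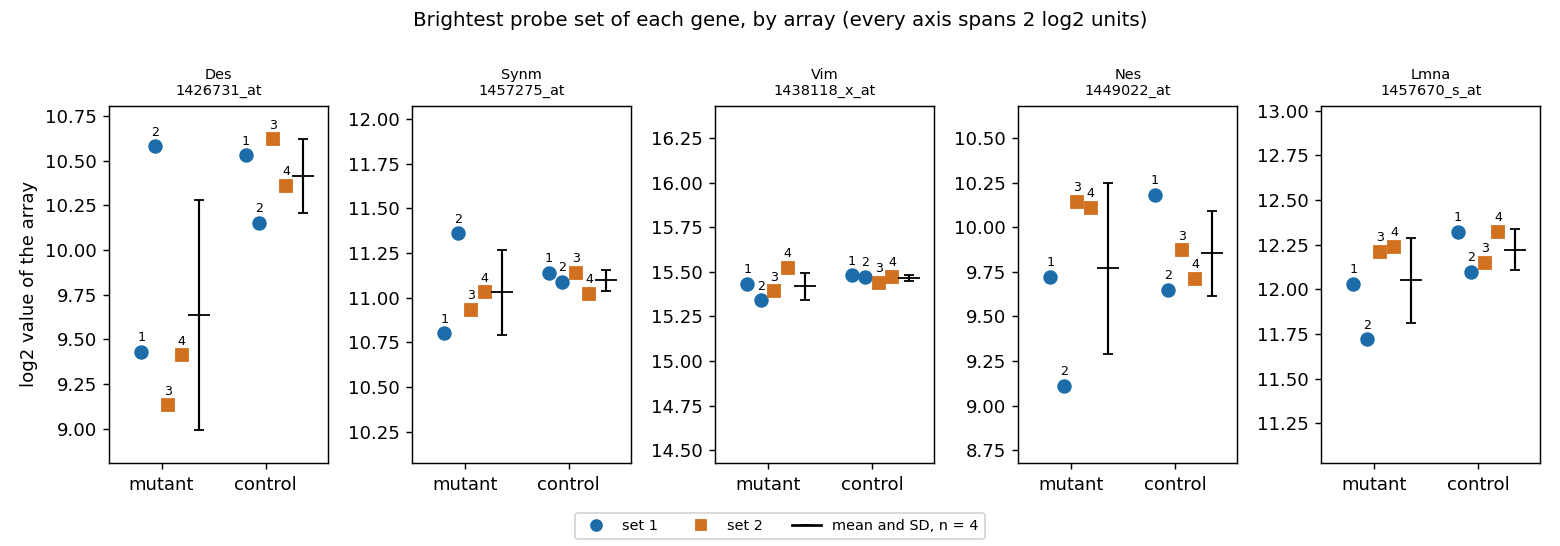
Value of the brightest probe set of each gene on each array (log2, numbered by replicate; blue circles set 1, orange squares set 2), mutants left and controls right, with mean and SD (n = 4). Every panel spans the same range of log2 units; Des at 9.13 to 9.43 in mutants 1, 3 and 4 sits below the controls at 10.15 to 10.62, while mutant 2 is at 10.58.

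The size of the Des difference depended on mutant 2. Without it, the mutants averaged 9.32 ± 0.17 (SD, n = 3), and the difference was -1.10 (SE 0.14, 95% confidence interval -1.43 to -0.76), a mutant level of 0.468 times that of controls. Its unadjusted limma p was then 0.000165, which ranks 19 among the 27023 probe sets, against rank 1875 with all 8 arrays, and the adjusted p was 0.234. Mutant 2 held the highest Des value of the mutants, so leaving it out moves the difference away from 0. The p and rank without it are a description and no separate test. Leaving out each of the other arrays gave differences of -0.94 to -0.63, all below 0, and weights per array, which gave mutant 2 a weight of 0.155, gave -1.03 (limma adjusted p = 0.127). Without mutant 2, 2 of 14 members were at an unadjusted p under 0.05, against 8.6% of all probe sets, 0 of 14 passed the adjusted threshold, against 0%, and 12 of 14 had a difference below 0, against 54.1%.

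**Figure D2:**
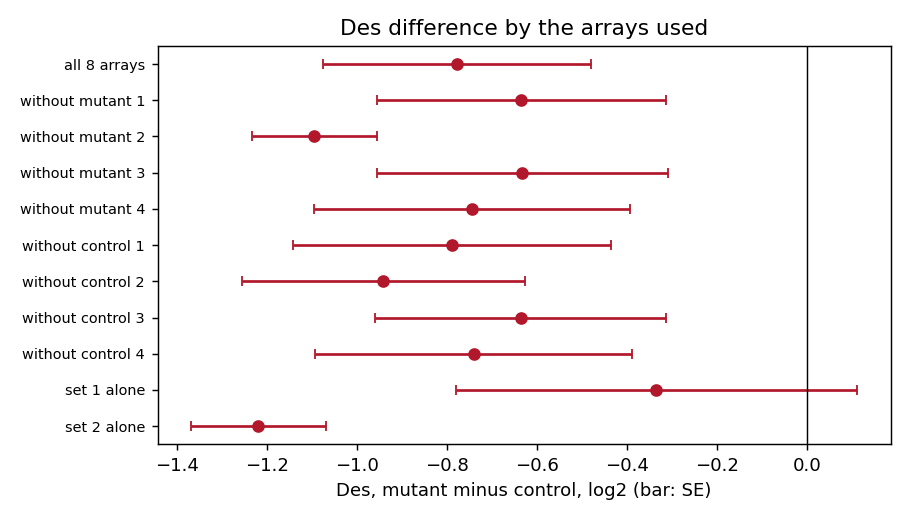
Des difference, mutant minus control on the log2 scale, with limma's standard error as the bar, over all 8 arrays, with each array left out in turn, and in each set alone. All points lie below 0, from -1.22 in set 2 alone to -0.34 in set 1 alone; leaving out mutant 2 gives -1.10 with the smallest error of the 7-array fits.

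Marker lists of smooth muscle and of other cell types were read beside Des, and no gene of any list passed the adjusted threshold. The smooth muscle contractile list had 16 of 16 genes below 0 with a median of -0.24, against 55% of genes and a median of -0.02 over the 12173 genes tested. Without mutant 2 these medians were -0.17 and -0.003. Ppp1r14a, an inhibitor of myosin phosphatase, differed by -0.59 (SE 0.06), Tagln by -0.29 (SE 0.05) and Myh11, the smooth muscle myosin heavy chain, by -0.21 (SE 0.05), with limma adjusted p of 0.102, 0.375 and 0.384. In the mutants 1 copy of Tagln holds the Cre, so its lower value cannot be told apart from that change of the allele. In log2 units the Des difference was thus more negative than the contractile median, a comparison that was not tested. All contractile genes of the list were brighter than Des (mean of 10.03 over the arrays), up to 15.36 for Acta2. Array signals compress near the top of their range, so differences of such genes may be understated beside Des. Means of the 10 endothelial genes were 9.20, 9.98, 7.92 and 8.04 in mutants and 7.85, 8.23, 7.71 and 7.26 in controls, so the groups overlapped. All 10 genes had a fitted difference above 0, with a median of 0.99, or 0.75 without mutant 2. Medians of the fibroblast and the macrophage and leukocyte lists were 1.01 and 1.08, with 8 of 9 and 10 of 10 genes above 0. The medians were larger in set 1 than in set 2, at 1.51 and 0.54 for endothelium and at 1.83 and 0.44 for macrophages and leukocytes. In the endothelial, fibroblast and macrophage lists 8, 7 and 9 genes were at an unadjusted p under 0.05, against 10.4% of all genes. Ptprb (endothelial phosphatase) differed by 1.00 (SE 0.13), Tek by 1.15 (SE 0.22) and Nos3 by 1.11 (SE 0.21). Among fibroblast genes Scara5 differed by 1.58 (SE 0.33), Dpt by 1.03 (SE 0.21) and Pi16 by 0.92 (SE 0.20). The macrophage genes Cd14, Cd163 and C1qb differed by 1.26 (SE 0.30), 1.02 (SE 0.23) and 0.80 (SE 0.20). Limma adjusted p for these 9 genes was between 0.29 and 0.394. Cd14 was dim, at 3.33 to 5.04 in mutants and 2.76 to 3.12 in controls, where the lowest mean kept was 2.97. Without control 3, the limma adjusted p of Ptprb was 0.0426, that of Scara5 0.015 and that of Pi16 0.0241, and with array weights that of Ppp1r14a was 0.0216. The part of these cells in the Des result was not tested.

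Mutant 2 had the highest mean of the Schwann cell list, at 9.00, against 5.44 to 5.48 in the other mutants and 5.14 to 5.39 in controls, and of the fat list, at 11.22, against 7.92 to 9.24 in the other mutants and 7.44 to 8.73 in controls. Cdh19, an adhesion molecule of Schwann cells, was at 9.25 in mutant 2, at 2.88 to 3.79 in the other mutants and at 2.78 to 2.92 in controls. S100b was at 7.82 in mutant 2 and Pmp22 at 12.56, the highest value of each gene. The fat genes Adipoq (13.63), Cidec (9.91) and Retn (9.84) were likewise highest in mutant 2. The median differences of these lists were 1.06 for Schwann cells and 1.34 for fat with all arrays, and 0.14 and 0.53 without mutant 2. Ngfr, at 10.16 in mutant 2 and 2.53 to 2.70 in all other arrays, passed the filter only through mutant 2. Cdh19 was below 2.97, the lowest mean kept, in all controls and passed through the mutants. The tested Schwann cell genes and their median thus rest in part on that array. By set, the fat median was 2.77 in set 1 and -0.395 in set 2, so its direction turned.

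**Figure D3:**
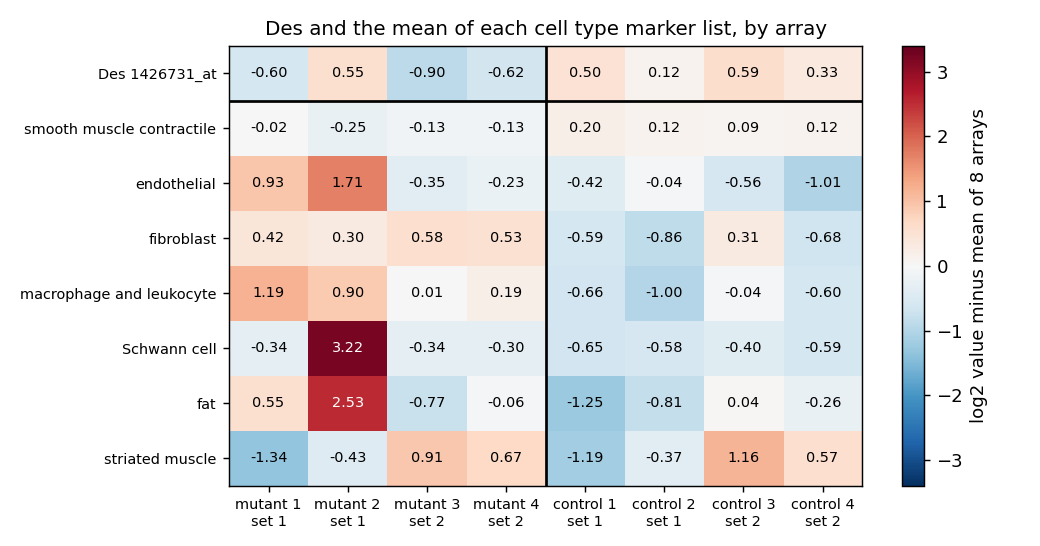
Des and the mean of each cell type marker list on each array, as log2 value minus the mean of the 8 arrays (red above, blue below), mutants left of the line and controls right of it. Mutant 2 is the mutant with Des above its mean (0.55) and holds the highest Schwann cell (3.22), fat (2.53) and endothelial (1.71) values. The striated muscle mean divides by set.

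Striated muscle also makes desmin, so its markers were read beside Des. The mean of 16 striated muscle genes was 3.54, 4.45, 5.79 and 5.55 in mutants and 3.69, 4.51, 6.04 and 5.45 in controls. The list mean thus divided by set and not by group, with higher values in set 2 of both groups. The division was seen in heart muscle genes such as Myh6, at 4.41 to 7.66 in set 1 and 9.77 to 11.54 in set 2. Mb (myoglobin) was at 4.29, 7.31, 10.90 and 10.28 in mutants and at 3.14, 6.12, 10.28 and 9.44 in controls, a difference of 0.95 (SE 0.84, limma adjusted p = 0.672). Casq1, the calcium store protein of skeletal muscle, was at 6.59, 4.55, 7.18 and 7.52 in mutants and at 8.80, 7.86, 8.33 and 8.21 in controls. Its groups did not overlap, and it differed by -1.84 (SE 0.56, limma adjusted p = 0.461), or by -1.25 without mutant 2. Most other skeletal genes of the list were near or below the lowest mean kept, such as Myh4 at 3.09 to 3.24 over all arrays. Acta1, the skeletal actin, was at 6.49 to 8.05 and differed by -0.08. Casq1 is therefore not read as a measure of skeletal muscle. Mylpf, a fast skeletal myosin light chain, was near the lower end of the kept values at 3.30 to 4.24 in mutants and 4.17 to 4.31 in controls. Of the 11 tested striated genes 8 were below 0, against 55% of all genes. Their median was -0.08, or -0.35 without mutant 2, and 5 others (Myh1, Myh2, Tnnt3, Tnni2 and Tnnc2) were below the filter. Among the 8 were Ckm, at 5.83 in control 3, and Actn3, at 3.25 in control 4. The mutant means of Ckm and Actn3 were below the lowest mean kept, so both passed the filter only through controls. That favours a difference below 0, so the count and the median are not read as a shift of the list. The part of striated muscle in the Des result was not tested.

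Synm, the gene of the large filament protein that links desmin to the membrane cytoskeleton, was close in the groups. Its brighter probe set was at 10.80, 11.36, 10.93 and 11.03 in mutants and at 11.14, 11.09, 11.14 and 11.02 in controls. Mutant 2 was the highest of all arrays and mutants 1 and 3 were the lowest, so the mutants spread over more than the controls on both sides. The difference was -0.07 (SE 0.12, 95% confidence interval -0.35 to 0.22, limma adjusted p = 0.835). The dimmer probe set, at 8.66, 9.29, 8.82 and 9.02 in mutants and 8.81, 8.80, 9.08 and 9.07 in controls, differed by 0.01 (SE 0.15, adjusted p = 0.988). Without mutant 2 the differences were -0.19 (SE 0.07, 95% confidence interval -0.35 to -0.02, adjusted p = 0.544) and -0.15 (SE 0.07, adjusted p = 0.622), so the sign of the dimmer probe set turned. Over the 8 arrays, after each set's mean was subtracted, Synm followed Des with a correlation of 0.749, and with 0.796 over the 7 arrays without mutant 2. The points are whole-tissue arrays that share their group and cell make-up, and the value is a description.

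Vim was among the brightest genes of the table and was at similar levels in the groups. Its brightest probe set was at 15.43, 15.34, 15.39 and 15.52 in mutants and at 15.48, 15.47, 15.44 and 15.47 in controls. The 4 controls lay between the mutants, with mutant 2 lowest and mutant 4 highest of all. The difference was -0.05 (SE 0.06, 95% confidence interval -0.18 to 0.09, limma adjusted p = 0.761). The other probe sets, at 14.78 to 15.06 in mutants and 14.97 to 15.11 in controls, differed by -0.08 (SE 0.06, adjusted p = 0.637) and -0.09 (SE 0.07, adjusted p = 0.663). Without mutant 2 the Vim differences were, from the brightest probe set down, -0.02, -0.04 and -0.03. The highest value in the whole table was 15.82, and array signals compress near the top of their range, so a difference of Vim may be understated. Endothelial cells and fibroblasts, whose marker lists had median differences above 0, also make vimentin, and their part in the Vim values was not tested.

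Whether Des and Vim moved apart was read from the difference of their brightest probe sets on each array. As Vim was nearly constant and close to the top of the scale, this quantity mostly restates the Des values and is no separate evidence. The Des value minus the Vim value was -6.00, -4.76, -6.26 and -6.11 in mutants and -4.95, -5.32, -4.82 and -5.11 in controls. The difference between the groups was -0.73, with a two-sided exact permutation p of 0.1667 over the 36 arrangements within sets, where the smallest possible is 0.0556. The design could thus not reach 0.05. Without mutant 2 the difference was -1.08, with an exact permutation p of 0.0556, the smallest possible over its 18 arrangements.

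**Figure D4:**
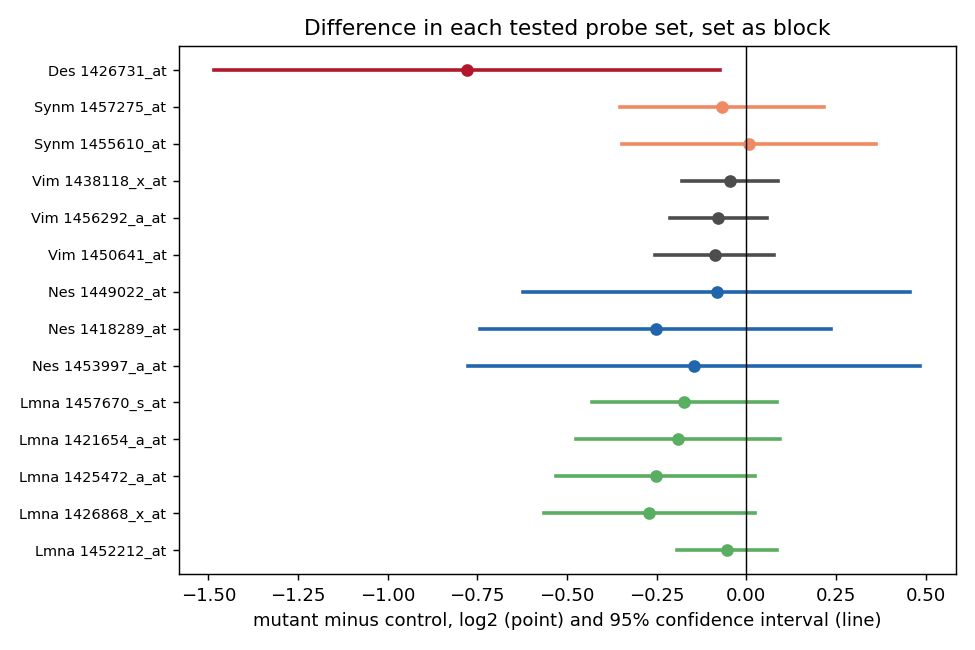
Difference between mutant and control (log2, point) with its 95% confidence interval (line) for each of the 14 tested member probe sets. The interval of Des, -1.48 to -0.07, is the only one that leaves out 0; those of Vim are the narrowest of the 4 other genes' brightest probe sets, at -0.18 to 0.09.

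Nes divided more by set than by group. Nestin is made by progenitor cells, endothelial cells and Schwann cells, and by some vascular smooth muscle cells. The brightest probe set was at 9.72, 9.11, 10.14 and 10.11 in mutants and at 10.18, 9.65, 9.87 and 9.71 in controls, a difference of -0.08 (SE 0.23, 95% confidence interval -0.62 to 0.46, limma adjusted p = 0.899). In set 1 mutant 2 lay below both controls and mutant 1 lay between them, so the groups overlapped. In set 2 both mutants had higher values than both controls. The differences were -0.50 in set 1 and 0.34 in set 2, with an interaction of 0.84 (SE 0.35, limma adjusted p = 0.824). Without mutant 2 the difference over both sets was 0.12 (SE 0.16), so its sign turned. Among the members 0 of 14 passed for that interaction, against 0.0518% of all probe sets.

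The other Nes probe sets were much lower in set 2. One was at 8.53, 8.21, 6.92 and 6.34 in mutants and at 8.87, 8.48, 6.49 and 7.17 in controls. Its set means were 6.73 in set 2 and 8.52 in set 1, a difference of -1.79 (SE 0.21, limma adjusted p = 0.0022). The dimmest was at 6.62, 5.67, 4.52 and 4.37 in mutants and at 6.94, 6.29, 4.24 and 4.29 in controls, with a set difference of -2.03 (SE 0.27, adjusted p = 0.00335). In both, the set values did not overlap, and the groups did. The genotype differences were -0.25 (SE 0.21, adjusted p = 0.667) and -0.15 (SE 0.27, adjusted p = 0.841). Without mutant 2 they were -0.18 (SE 0.22) and 0.11 (SE 0.17), so the sign of the dimmest turned. The brightest probe set had a set difference of 0.29 (SE 0.23, adjusted p = 0.377), so the Nes probe sets did not tell the same about the sets. The member probe set beside these that passed for set was a dim one of Lmna, at 5.02 in set 2 and 4.54 in set 1 (0.48, SE 0.12, adjusted p = 0.0364). In all, 3 of 14 members passed for set, against 21.4% of all probe sets.

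Lmna, which encodes lamins A and C by alternative splicing, had a fitted difference below 0 in all 5 probe sets, none of which passed. The brightest was at 12.03, 11.72, 12.21 and 12.24 in mutants and at 12.32, 12.10, 12.15 and 12.32 in controls. Mutant 2 was the lowest array, and mutants 3 and 4 lay among the controls. The difference was -0.17 (SE 0.11, 95% confidence interval -0.43 to 0.09, limma adjusted p = 0.605). The next probe sets were at 10.99 to 11.54 in mutants and 11.31 to 11.66 in controls (-0.19, SE 0.12, adjusted p = 0.606), and at 9.25 to 10.04 in mutants and 9.68 to 10.12 in controls (-0.25, SE 0.12, adjusted p = 0.552). Those at 4.17 to 5.05 in mutants and 4.64 to 5.15 in controls differed by -0.27 (SE 0.12, adjusted p = 0.550). The dimmest, at 2.85 to 3.07 over all arrays, was close to the lowest mean kept, 2.97, and differed by -0.05 (SE 0.06, adjusted p = 0.730). Mutant 2 was the lowest array in all 5 probe sets. Without it the 5 differences were -0.08, -0.09, -0.16, -0.18 and -0.003, in the same order.

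Probe sets of the same gene mostly went together over the arrays. After each set's mean was subtracted, the correlation was 0.887 between the Synm probe sets, 0.75 to 0.891 among those of Vim and 0.69 to 0.953 among those of Lmna. Among those of Nes it was 0.354 to 0.936. Between genes, Nes with Lmna and Vim with Lmna gave 0.81 and 0.766 over 8 arrays, and 0.483 and 0.44 without mutant 2. Des with Vim gave -0.024 and Des with Lmna -0.0432 over 8 arrays, and 0.29 and 0.399 without mutant 2. These values have few points, which share the group and the make-up of the tissue.

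The genes whose pattern was most like each member were found among 12168 tested genes by the same correlation over the 8 arrays. Those nearest to Des were Fbxl5 (0.958), Hif1an (0.956) and Tmem64 (0.952), and 11 genes exceeded 0.9. Without mutant 2 the 3 genes kept values of 0.955 to 0.969. Nearest to Synm were Prrg2 (0.999), Angptl6 (0.974) and Msmo1 (0.957). Nearest to Vim were Arfgap1 (0.985), Nemp1 (0.981) and Pla2g4a (0.98), and nearest to Nes were Itpripl2 (0.997), Timp2 (0.993) and E130311K13Rik (0.984). Nearest to Lmna were Riok3 (0.995), Galnt11 (0.99) and Lamtor3 (0.99). The numbers of genes above 0.9 were 21 for Synm, 189 for Vim, 174 for Nes and 582 for Lmna, and Des had the fewest. With 8 arrays, values near 1 turn up among so many genes.

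Filament genes of nerve and epithelium were read as a list of 12, of which 7 were tested and 0 passed. The nerve filament genes were high in mutant 2 alone. Nefl, Nefm and Ina were below 2.97, the lowest mean kept, on the other 7 arrays and passed the filter only through mutant 2. Nefh lay on both sides of 2.97 on those 7 arrays, with a control mean of 2.935, and likewise passed only through mutant 2. The tested genes of the list and their median thus rest on that array. Nefl, the light neurofilament subunit, was at 2.20, 9.64, 2.24 and 2.23 in mutants and at 2.18 to 2.24 in controls, a difference of 1.86 (SE 1.58, limma adjusted p = 0.668) that was 0 without mutant 2. Nefm was at 9.84 in mutant 2, at 2.83 to 2.89 in the other mutants and at 2.86 to 2.89 in controls. Nefh, the heavy subunit, was at 7.07 in mutant 2, at 2.86 to 3.02 in the other mutants and at 2.86 to 3.01 in controls. Prph (peripherin, of peripheral nerve cells) was at 10.91 in mutant 2, at 2.94 to 3.07 in the other mutants and at 2.94 to 3.27 in controls. Ina (alpha-internexin) was at 5.34 in mutant 2 and at 2.77 to 2.83 in all other arrays. Th, the enzyme that begins catecholamine synthesis in sympathetic neurons, was named after its values were seen, at 9.92 in mutant 2 and 2.15 to 2.20 in all other arrays. Other probe sets of Nefl and Ina were likewise high in mutant 2 alone, and 3 of the 4 Prph probe sets were not. The list median was 1.04 with all arrays and -0.01 without mutant 2.

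**Figure D5:**
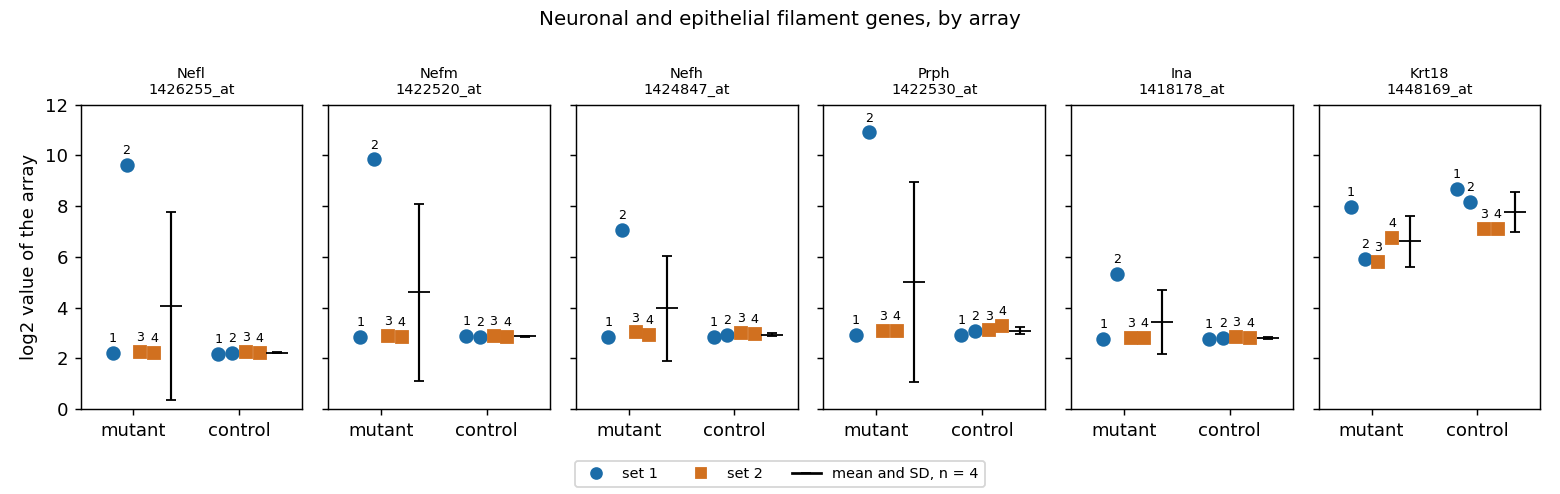
Log2 value of 5 nerve filament genes and Krt18 on each array (numbered by replicate; blue circles set 1, orange squares set 2), mutants left and controls right, with mean and SD (n = 4). Nefl, Nefm, Nefh, Prph and Ina are above 5 in mutant 2 and below 3.5 in all other arrays; Krt18 is lowest in mutants 2 and 3.

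Krt18, a keratin of simple epithelia that is also made by some vascular cells, was at 7.98, 5.92, 5.80 and 6.74 in mutants and at 8.67, 8.16, 7.10 and 7.09 in controls. It was the 1 gene of the list at an unadjusted p under 0.05, with a difference of -1.15 (SE 0.46, limma adjusted p = 0.516), and -0.67 without mutant 2. Within each set both mutants lay below both controls. Krt5, of basal epithelia, was dim at 3.48 to 3.79 in mutants and 3.67 to 3.79 in controls (-0.10, SE 0.07, adjusted p = 0.634). Gfap, Krt7, Krt8, Krt14 and Krt19 were below the filter, among them Krt8, the usual partner of Krt18.

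Of the 15 genes whose products anchor filaments to junctions, membrane and actin, 13 had a fitted difference below 0, with a median of -0.31, against 55% of genes and a median of -0.02 over all genes. None passed the adjusted threshold, and 6 of 15, all below 0, were at an unadjusted p under 0.05, against 10.4% of genes. Without mutant 2 the median was -0.24. Dsp (desmoplakin, which fixes desmin to junctions in heart and keratins in epithelia) was at 12.27, 11.38, 12.19 and 12.32 in mutants and at 12.61, 12.67, 12.80 and 12.87 in controls. Its groups did not overlap, and the difference was -0.70 (SE 0.18, limma adjusted p = 0.427), or -0.50 without mutant 2. Dtna, whose product dystrobrevin binds synemin at the membrane, was at 9.97, 9.61, 10.27 and 10.91 in mutants and at 10.97, 10.48, 11.07 and 11.40 in controls. It differed by -0.79 (SE 0.19, adjusted p = 0.392), and by -0.69 without mutant 2. Tln1 (talin, of cell-matrix contacts) was at 12.46, 12.23, 12.43 and 12.32 in mutants and at 12.73, 12.75, 12.56 and 12.65 in controls, without overlap (-0.31, SE 0.07, adjusted p = 0.384). Vcl (vinculin) differed by 0.02 (SE 0.10) and Plec (plectin, the main linker of filaments) by 0.13 (SE 0.09), and these were the genes of the list above 0.

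The nuclear envelope genes that work with the lamins showed little shift as a list, with 11 of 17 tested genes below 0, against 55% of all genes, and a median of -0.05, or 0.009 without mutant 2. None passed, and 2 (11.8%) were at an unadjusted p under 0.05, against 10.4% of all genes. Emd (emerin, which binds lamin A at the inner membrane) was at 9.03, 8.59, 8.81 and 9.10 in mutants and at 9.37, 9.38, 9.16 and 9.30 in controls. All mutants lay below all controls, and the difference was -0.42 (SE 0.13, limma adjusted p = 0.461), or -0.30 without mutant 2. Fnta, a subunit of the enzyme that farnesylates prelamin A, differed by 0.21 (SE 0.09, adjusted p = 0.519). Lmnb1 (lamin B1) was dim, at 3.37 to 3.96 in mutants and 2.90 to 3.44 in controls (0.25, SE 0.16, adjusted p = 0.605), and Lmnb2 was below the filter. Zmpste24, the protease that completes lamin A, differed by -0.08 (SE 0.13). Of the genes of dividing cells, Birc5 and Bub1 were below the filter. Top2a, which averaged 2.78 in mutants and 3.35 in controls, passed it only through the controls, so the 5 tested genes are not read as a list. Top2a differed by -0.57 (SE 0.19), Mki67 by -0.35 (SE 0.18) and Cdk1 by -0.11 (SE 0.06), all with a limma adjusted p of 0.468 or more.

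Chaperones, proteases and kinases of filaments had 9 of 14 tested genes below 0, against 55% of all genes, and a median of -0.03. Of them 0 passed and 1 was at an unadjusted p under 0.05, a share of 7.14% against 10.4% of all genes. Hspb6, a small heat shock protein of muscle, was at 11.38, 10.96, 11.07 and 11.39 in mutants and at 11.81, 12.04, 11.49 and 11.27 in controls. It was lower in mutants in set 1, while in set 2 the groups overlapped, and it differed by -0.45 (SE 0.17, limma adjusted p = 0.501). Cryab, the desmin chaperone alpha-B crystallin, was at 12.84, 12.50, 13.46 and 13.39 in mutants and at 12.82, 12.74, 13.19 and 13.31 in controls (0.03, SE 0.10, adjusted p = 0.908). Hspb8 differed by -0.22 (SE 0.11, adjusted p = 0.561) and Capn1, a calcium-dependent protease, by 0.25 (SE 0.12, adjusted p = 0.555). Bag3, which with Hspb8 clears damaged filament proteins, differed by -0.09 (SE 0.11).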

How the data were processed

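Whole-aorta RNA was measured on 8 Affymetrix arrays. The deposited values are log2 signals, a scale read from their range (0.9 to 15.82). Per the submitters' processing notes GCOS was used, with no version, and the background correction and normalization were not given in the sources used here. Values were used as deposited. Of 45037 probe sets, 34945 have 1 gene symbol in the platform annotation, 932 several and 9160 none. The 40% with the lowest mean were dropped, so that 27023 probe sets of 12173 genes with means from 2.97 up were tested. No 2 arrays shared more than 24.7% of values.

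Models of genotype plus title set were fitted with limma 3.58.1 (R 4.3.3) and moderated with a trend of variance on mean, and two-sided p-values were adjusted by Benjamini-Hochberg over the whole table, at 0.05. Fitted differences subtract control from mutant. SE is limma's moderated standard error, and the procedure was tested on simulated data. The simulation gave all arrays equal spread, whereas array weights here were 0.155 for mutant 2 and 3.29 for mutant 1. It therefore does not show how the procedure behaves with such arrays. Replicates were numbered in accession order and pair nothing, so the block is the title set.

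Named were every member probe set, the 3 tested genes of lowest p in each of 13 lists (153 genes, brightest probe set), and the 3 genes most like each member. Other genes given with values were chosen as background or after their values were seen. They are Srf, Th, Vcl, Plec, Zmpste24, Bag3, Cryab, Nefm, Nefh, Prph, Ina, Ngfr, Myh6, Myh4, Acta1, Acta2, Ckm and Actn3. The members and lists were chosen with earlier results of these data known. The lists are other cytoplasmic filaments, nuclear envelope, anchors, chaperones, smooth muscle, endothelium, fibroblasts, macrophages and leukocytes, Schwann cells, fat, striated muscle, dividing cells and mesothelium; the 4 mesothelial genes were all below the filter. Promoter windows came from RefSeq (GRCm38.p6). Alternatives were other filters, quantile normalization, median centring, other variance models, array weights, no set term, each set alone and each array left out. Figures used Python 3.11.15 and matplotlib 3.10.9.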

Additional observations from a re-analysis of the deposited data

Results flagged for a closer look

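In 100 groups of 4 arrays, 11 had an array whose gap to its nearest neighbour exceeded Dixon's 95% limit as a share of the group's range, where chance gives about 1 in 20 groups; 5 of the 11 were mutant 2. Among member probe sets these were the dimmest of Lmna, with mutant 2 apart among mutants (gap 0.909 of the range) and control 1 apart among controls (gap 1), over a range of values that is small in both groups. Mutant 2 also stood apart for Nefl (0.995), Lmnb1 (0.898), Dsp (0.862) and Cdh19 (0.857). Lmnb1 had control 4 apart among controls (0.944). Mutant 1 stood apart for Myh11 (0.917) and Dpt (0.872). Mylpf had mutant 4 apart among mutants (0.915) and control 1 among controls (0.857). For Des, the gap between mutant 2 and the next mutant did not exceed the limit.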

How the results depend on the processing

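The Des difference kept its sign under all alternatives run and passed the adjusted threshold under none. No member probe set passed under any alternative. Over all probe sets, 10 passed with array weights, and leaving out 1 array gave 0 to 11 (11 without control 3). The count at an unadjusted p under 0.05 was 1279 with no replicate block (no set term), 1485 in set 2 alone and 1426 to 2944 with 1 array left out (lowest without control 1), against 2581; for members it was 0 in set 1 alone, 2 in set 2 alone and 0 to 2 with 1 array left out. The interaction gave 36 without a filter, against 14. Differences of these probe sets and genes turned their sign. The brighter Synm probe set ranged from -0.186 to 0.038 with 1 array left out. The dimmer one ranged from -0.15 to 0.10, and was -0.065 with median centring, -0.12 with array weights and -0.16 in set 2 alone. The brightest Nes probe set ranged from -0.20 to 0.12, and was 0.0628 with array weights and 0.34 in set 2 alone. The dimmest ranged from -0.27 to 0.11, and was 0.0544 with array weights and 0.18 in set 2 alone. In set 2 alone Cidec was -0.40 and Adipoq -0.54. Of the genes named from lists, Ppp1r14a passed with array weights, and Ptprb, Scara5 and Pi16 without control 3. The causes were not tested. Signals near the lowest mean kept limit what differences there can show (such as Lmna's dimmest probe set, Top2a, Cdk1, Nefl, Ina, Lmnb1, Ngfr and Cd14). The same holds near the top, for Vim and for contractile genes such as Acta2.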

Other observations

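Several genes had more than 1 probe set, and these are given as values. All 6 tested probe sets of Dtna were below 0, with mutant levels of 0.436 to 0.69 times those of controls. Another of them, at 7.34, 7.17, 6.77 and 7.20 in mutants and at 8.74, 7.95, 7.71 and 7.66 in controls, had no overlap between the groups (limma adjusted p = 0.384). The 3 tested Dsp probe sets had mutant levels of 0.617, 0.557 and 0.372 times those of controls, with limma adjusted p of 0.427, 0.433 and 0.523. The dimmest of these was at 7.31, 4.66, 5.05 and 4.97 in mutants and at 8.26, 8.09, 5.95 and 5.39 in controls. Mutant 1 had the highest of the 4 mutant values there, as it had for Krt18.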
